A study of Rattus norvegicus and Mus musculus with 3 samples.

Results

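The antioxidant genes of the hippocampus were taken as every symbol of the 3 deposited tables that names a glutathione transferase (Gsta, Gstm, Gstp, Gstt, Gsto, Gstk or Gstz with a number), a glutathione peroxidase (Gpx), a peroxiredoxin (Prdx), any name beginning with Txn, a superoxide dismutase (Sod1 to Sod3), or 1 of Cat, Gclc, Gclm, Gsr, Nqo1, Hmox1, Hmox2, Srxn1, Nfe2l2 and Keap1. The rule took 68 of 30438 names in each rat table and 68 of 34714 in the mouse table, with 65 symbols in common. It used names only and no measured value. The Txn prefix also brought in genes with no known antioxidant role, such as the splicing factors Txnl4a and Txnl4b. The sperm thioredoxins Txndc2 and Txndc8 came in by the same prefix.

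Hippocampal RNA was measured in 3 libraries, 1 per group, so replicate error is unknown for every difference and no test was run. The first came from a rat labelled Sham and the second from a rat labelled 2VO, both labelled WT in genotype and 3 to 4 months old. In this field 2VO usually stands for closure of both common carotid arteries, which lowers blood flow to the brain, and Sham for the operation without closure. The third came from a 6 month old mouse labelled WT of the 3xTg-AD line, an Alzheimer's disease model in its transgenic form; no group studied here carries the transgenes by its label. Strain, sex, the time after surgery and any pooling of animals are not stated in the labels.

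Cells remove hydrogen peroxide and lipid peroxides through 2 parallel chains of electron transfer, both fed by NADPH. In one, glutathione is made by glutamate-cysteine ligase and glutathione synthetase, is spent by glutathione peroxidases and transferases, and is recovered by glutathione reductase. In the other, peroxiredoxins are recharged by thioredoxin, and thioredoxin by thioredoxin reductase. The transcription factor NRF2, held down by KEAP1 until electrophiles or oxidants modify KEAP1, drives many of these genes, and in brain its activity is greater in astrocytes than in neurons.

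The deposited values are normalized, on a scale that no source names, and are given here as units. Across 11947 mouse protein-coding genes at 1 unit or more, Spearman's rho between the value and transcript length was -0.10, so values did not climb with length as raw counts would. Levels of different genes are set side by side below under the assumption, not stated by the sources, that the values are per length. The read depth of the libraries is unknown. The antioxidant genes summed to 1884 units in Sham, 2004 in 2VO and 1429 in the mouse, which was 0.578%, 0.600% and 0.531% of all units. Of the 68 rat members 56 had a mean of at least 1 unit over both rats and are called measured. The 12 others were Gpx2, Gpx5, Gpx6, Gsta2, Gsta3, Gsta5, Gstm2, Gstm3-2, Gstm6l, Gstt4, Txndc2 and Txndc8, and 6 of these were listed at 0 in both rats.

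Of the 56 measured antioxidant genes 42 differed by less than 1.2-fold between the rats. The others lay mainly among the glutathione transferases, and Txnip, the thioredoxin-binding protein, had the highest ratio. On the log2 scale, after adding 1 unit to each value, the 2VO to Sham ratio had its median at 0.06 over the 56 measured members and 0.04 over all 13550 measured genes. Its SD was 0.23 over the members and 0.24 over all genes. At least a 1.5-fold difference was seen in 2 members higher in 2VO, Txnip and Gstm1, and in 0 lower, where all measured genes gave 1.51% higher and 0.967% lower, or 2.48% in all. At 1.2-fold 11 members (19.6%) were higher and 3 (5.36%) lower, beside 12.6% and 6.81% of all measured genes, or 25% of members beside 19.4% in all. The 11 were Txnip, Gstm1, Gstz1, Gpx3, Gstm4, Srxn1, Txnrd2, Gstm3, Gstp1, Gstm5 and Gstt3, and the 3 were Txn1, Gstt1 and Gsto2. Glutathione transferases made up 9 of these 14 and 16 of the 56 measured members. Without them 5 of 40 members passed 1.2-fold, 4 higher and 1 lower. Any excess in 2VO, however small, was seen in 34 of 56 members (60.7%), against 58.7% of all measured genes, so the direction of the members as a whole lay close to the background. Scaling the libraries by the median of ratios left 29 of 56 members higher, and set the background at 49.98%. At 1.2-fold this scaling left 8 members higher and 3 lower, beside 9.55% and 8.83% of all measured genes. Less than 1.1-fold apart were 24 members (42.9%) and 53.5% of all measured genes.

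**Figure D1:**
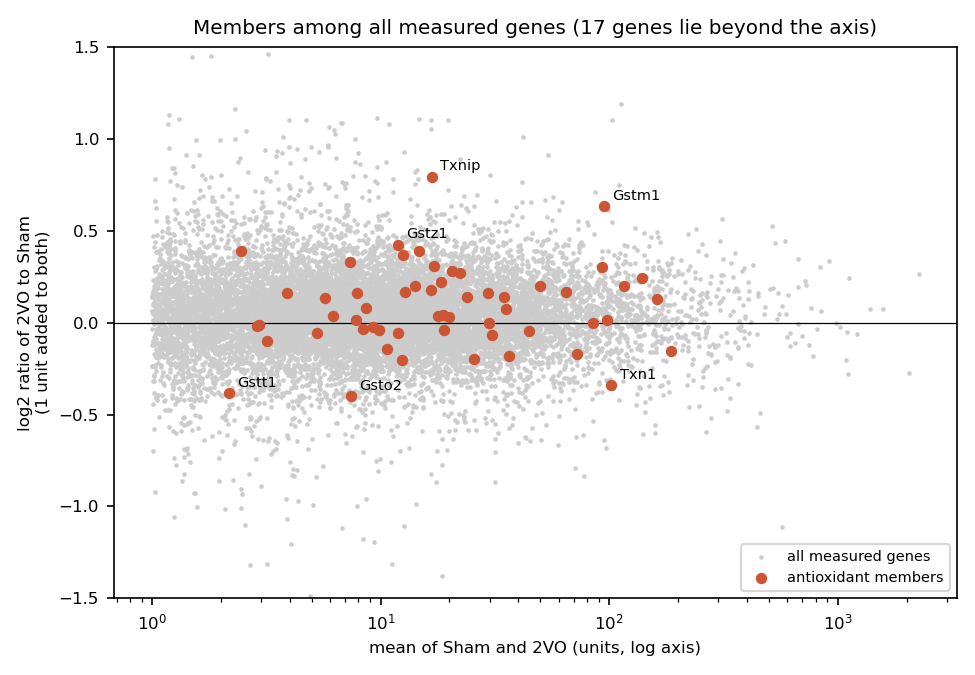
The log2 ratio of 2VO to Sham (1 unit added to each) is plotted against the mean of both rats in units (log axis), with all 13550 measured genes in grey and the 56 measured antioxidant members in red; 17 genes beyond 1.5 are not drawn. Txnip and Gstm1 stand highest among the members, and Gsto2, Gstt1 and Txn1 lowest.

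The regulators of the response differed little. Nfe2l2, which encodes NRF2, was 5.38 units in Sham, 6.01 in 2VO and 5.28 in the mouse. Keap1, its cytoplasmic inhibitor, was 19.7 in Sham, 20.1 in 2VO and 17.8 in the mouse. Neither passed 1.2-fold between the rats, and the small excess of Keap1 in 2VO turned to a deficit under both other scalings.

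Of 7 members widely used as readouts of NRF2, only Srxn1 passed 1.2-fold, and the median log2 ratio of the 7 was 0.01. Srxn1, the sulfiredoxin that repairs overoxidized peroxiredoxins, was 10.8 units in Sham against 14.3 in 2VO (log2 ratio 0.37). Nqo1, a quinone reductase, was 5.41 and 5.17. Hmox1, the inducible haem oxygenase, was 2.90 and 2.85. Both classical targets therefore stood at almost equal, low levels in the rats. Gclc, the catalytic subunit of glutamate-cysteine ligase, was 13.1 in Sham and 15.2 in 2VO, while Gclm, its modifier subunit, was 7.78 and 7.86. Gsr, glutathione reductase, was 15.5 and 17.6. Txnrd1, the cytosolic thioredoxin reductase, was 19.2 and 18.6. The constitutive haem oxygenase Hmox2, which is not part of this set, was far above Hmox1 in both rats, at 34.4 and 36.3.

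NRF2 acts through a DNA element whose core can be written TGACNNNGC, and AP-1 factors bind TGANTCA, which can lie inside it. Both were searched on both strands in the 250 bases upstream of the RefSeq gene start (rat build GRCr8). Windows were found for 58 of the 68 rat members. The NRF2 core was present in 10.1% of 33469 windows of all genes. It was found in 13 of the 58 members, namely Gclm, Txnrd1, Gstp1, Gstz1, Gstm5, Gstm7, Gsta3, Gpx2, Prdx1, Sod2, Hmox2, Txndc5 and Txndc11, and in 13 of their 65 windows (20%). The AP-1 motif was present in 6.34% of all windows and in 4 of the 65 member windows (6.15%). Those windows belonged to 4 members, Gstm5, Gstp1, Prdx1 and Srxn1. Windows of 6 genes are shown so that the matched members can be read beside their levels, with Gstm1, which has the highest ratio of the transferases and no match, for contrast; capitals mark a match. They are Gclm at chr2:213031885-213032134 (plus strand), Txnrd1 at chr7:22755905-22756154 (minus), Srxn1 at chr3:161064562-161064811 (plus), Gstp1 at chr1:210769706-210769955 (minus), Gstz1 at chr6:112525356-112525605 (plus) and Gstm1 at chr2:198343384-198343633 (minus), each written 5′ to 3′ on the strand of its gene.
Gclm: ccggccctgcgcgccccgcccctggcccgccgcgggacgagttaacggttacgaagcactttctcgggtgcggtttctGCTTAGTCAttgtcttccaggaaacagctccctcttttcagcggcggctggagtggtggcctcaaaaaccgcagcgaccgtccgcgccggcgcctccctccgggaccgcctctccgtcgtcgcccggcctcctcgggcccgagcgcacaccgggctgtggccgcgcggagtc
Txnrd1: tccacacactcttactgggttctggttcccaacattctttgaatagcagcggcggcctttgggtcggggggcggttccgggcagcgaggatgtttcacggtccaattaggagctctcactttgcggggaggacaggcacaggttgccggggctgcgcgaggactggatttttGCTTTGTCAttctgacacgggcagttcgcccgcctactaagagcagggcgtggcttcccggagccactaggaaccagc
Srxn1: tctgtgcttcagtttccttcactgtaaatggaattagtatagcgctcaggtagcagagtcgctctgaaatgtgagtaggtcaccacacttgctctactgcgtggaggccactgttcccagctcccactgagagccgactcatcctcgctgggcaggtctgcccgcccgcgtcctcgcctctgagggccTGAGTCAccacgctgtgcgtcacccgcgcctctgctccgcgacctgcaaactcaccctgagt
Gstp1: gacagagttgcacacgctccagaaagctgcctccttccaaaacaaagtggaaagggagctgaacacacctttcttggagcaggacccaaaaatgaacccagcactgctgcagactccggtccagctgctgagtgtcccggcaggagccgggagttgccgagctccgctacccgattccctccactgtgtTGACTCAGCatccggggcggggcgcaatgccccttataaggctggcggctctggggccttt
Gstz1: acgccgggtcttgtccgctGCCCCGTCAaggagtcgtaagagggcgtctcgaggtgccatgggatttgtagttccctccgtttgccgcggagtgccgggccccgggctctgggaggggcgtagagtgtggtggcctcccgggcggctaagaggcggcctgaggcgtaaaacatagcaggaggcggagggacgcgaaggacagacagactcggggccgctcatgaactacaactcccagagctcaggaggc
Gstm1: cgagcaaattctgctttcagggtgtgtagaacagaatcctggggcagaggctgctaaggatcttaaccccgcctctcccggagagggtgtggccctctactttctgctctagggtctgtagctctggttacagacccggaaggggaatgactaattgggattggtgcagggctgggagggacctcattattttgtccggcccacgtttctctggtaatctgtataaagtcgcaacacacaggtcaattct
In Gclm, Txnrd1 and Gstz1 the match lies on the opposite strand, so the capitals read as the reverse complement of the core. In Gstp1 both motifs overlap in 1 run. Txnrd1 has another window, at chr7:22764852-22765101 (minus), which holds no match and is not shown. Of 11 measured members with the NRF2 core, 3 were at least 1.2-fold apart, Gstz1, Gstp1 and Gstm5, with a median log2 ratio of 0.16 over the 11. Of 37 measured members with a window and no core, 9 were, with a median of 0.04. Over all measured genes 19.4% were that far apart, with a median of 0.04. Gstp1 and Gstm5 fell below 1.2-fold under both other scalings, and a link between core and ratio was not tested. Gclm and Txnrd1, both with the core, were within 1.1-fold. A match is a description of letters in a short window, and elements further upstream were not searched.

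Glutathione transferases, which join glutathione to electrophiles, held most of the members past 1.2-fold. Their 16 measured genes summed, with the unmeasured ones, to 484 units in Sham and 555 in 2VO. Of the 16, 10 were higher and 6 lower in 2VO as deposited, with Gstm7 and Gstm6 turning lower by the median of ratios, a split close to the 58.7% of all measured genes that were higher. At 1.2-fold 7 were higher and 2 lower, beside 12.6% and 6.81% of all measured genes.

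The mu class was higher in 2VO in all 6 of its measured genes, with a median log2 ratio of 0.30, though Gstm7 turned lower under both other scalings and Gstm6 by the median of ratios. Of all measured genes 58.7% were higher. Gstm1 was 73.7 units in Sham against 115 in 2VO (log2 ratio 0.64). Gstm4 was 12.6 and 16.8, with a ratio of 0.39. Gstm3 was 15.2 and 19.1, with a ratio of 0.31. These 3 passed 1.2-fold under each scaling tried. Gstm5 was 18.3 and 22.5, a ratio of 0.28 that fell short of 1.2-fold under both other scalings. Gstm7, the most abundant mu gene in Sham, was 97.7 and 98.7. Gstm6 was 6.12 and 6.30. Gstm1 therefore ranked below Gstm7 in Sham and above it in 2VO, and the class sum was 224 units in Sham and 280 in 2VO.

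The mu genes lie side by side on rat chromosome 2, in the RefSeq order Gstm5, Gstm6l, Gstm7, Gstm6, Gstm3, Gstm2, Gstm1 and Gstm4, with 1 further gene between Gstm6 and Gstm3. The 4 genes past 1.2-fold thus sit at either end of the cluster, and Gstm7 and Gstm6, which differed least, sit between them. Gstm2, beside Gstm1, was 0.508 in Sham and 1.17 in 2VO and did not reach the mean of 1 unit. Upstream windows of the 7 mu genes with one were identical at 41.1% to 54.2% of aligned positions. The Gstm1 window was identical at 44.0% (Gstm6) to 54.2% (Gstm3) with the other mu genes. With those of 51 members outside the class it ran from 41.2% to 50%, with a median of 44.5%. Only the Gstm3 window lay above that range, and the next, Gstm7, was at 49.4%. Coding sequences of these copies are similar, and how reads shared between them were assigned is unknown, so single values within the class are uncertain. The class sum is touched less by reads moved between copies of the class.

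**Figure D2:**
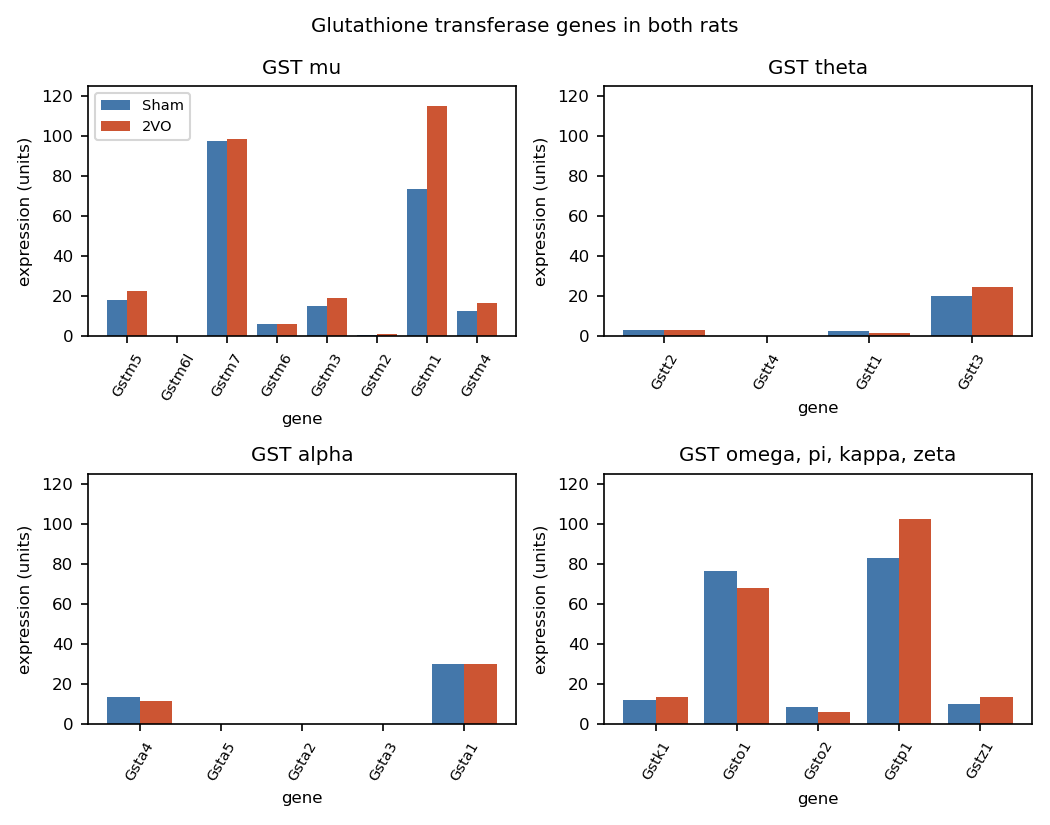
Bars give the deposited expression in units of each glutathione transferase gene in the Sham (blue) and 2VO (red) rat, with the mu, theta and alpha genes in their chromosomal order. Gstm1 is 73.7 in Sham and 115 in 2VO beside an almost level Gstm7, and Gsto1 and Gsto2 are lower in 2VO.

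Gstp1, the only pi gene of the rat tables, was 83.2 units in Sham against 103 in 2VO; its log2 ratio of 0.30 fell below 1.2-fold under both other scalings, at 0.26 by the median of ratios. Gstz1, the zeta enzyme that also isomerizes maleylacetoacetate in tyrosine breakdown, was 10.0 and 13.8, with a ratio of 0.43. Gstk1, the kappa enzyme of mitochondria and peroxisomes, was 11.95 and 13.5. These 3 single-gene classes all stood higher in 2VO, as did 58.7% of all measured genes. Gstk1, with a ratio of 0.17, did not pass 1.2-fold.

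The theta class was divided. Gstt3 was 20.1 units in Sham and 24.5 in 2VO, a ratio of 0.27 that also missed 1.2-fold under both other scalings. Gstt1 was 2.59 and 1.75, a ratio of -0.38. Gstt2 was 2.95 and 2.92. The 3 measured genes therefore went in different directions within 1 cluster.

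Both omega genes were lower in 2VO. Gsto1, which also reduces dehydroascorbate, was 76.6 units in Sham and 67.9 in 2VO. Its neighbour Gsto2 was 8.54 and 6.23, with a log2 ratio of -0.40, the lowest of the 56 members with 1 unit added; with 0.25 units added it was -0.44, and Gstt1 lay below it at -0.51. In the alpha class Gsta1 was 29.9 in both rats. Gsta4, which clears the lipid peroxidation product hydroxynonenal, was 13.4 and 11.5. The remaining alpha genes were listed at 0 or near 0.2 units in both rats.

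Glutathione peroxidases, which reduce peroxides with glutathione, were lower in 2VO in 4 of 5 measured genes, where 41.3% of all measured genes were lower, and had a median log2 ratio of -0.10. Gpx4, the selenoenzyme that reduces lipid hydroperoxides in membranes, was the most abundant antioxidant gene in each library, at 196 units in Sham, 176 in 2VO and 126 in the mouse. Gpx1, the main cytosolic enzyme, was 38.8 in Sham and 34.1 in 2VO. Gpx3, the secreted enzyme, was the exception, at 1.99 and 2.91 with a ratio of 0.39. Its low level made it sensitive to the log scale, and it fell below 1.2-fold with 4 units added. In the endoplasmic reticulum pair, Gpx7 was 3.32 and 3.04 and Gpx8 was 9.32 and 9.15.

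Peroxiredoxins, the most abundant peroxide scavengers by sum, stood at 466 units in Sham and 515 in 2VO, and none of the 6 passed 1.2-fold. Prdx6, a peroxiredoxin with a single catalytic cysteine and a phospholipase activity, came nearest, at 127 and 151 with a ratio of 0.25. Prdx2, the cytosolic form abundant in neurons and red cells, was 155 and 169. Prdx1 was 61.2 and 68.8. Prdx6, Prdx2 and Prdx1 were thus somewhat higher in 2VO, as were 58.7% of all measured genes. Prdx3 of the mitochondrial matrix was 27.8 and 31.2. Prdx5 was 85.1 in both rats. Prdx4 of the endoplasmic reticulum was 9.97 and 9.69. Red blood cells carry much peroxiredoxin 2; haemoglobin gene Hbb was 107 units in both rats and Hba1 was 168 and 153, and of 5 measured red cell genes 2 were higher and 3 lower in 2VO, with their list sum at 377 and 348.

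The thioredoxin system held the highest single ratio. Txnip, which binds and inhibits thioredoxin and is induced by glucose, was 11.96 units in Sham, 21.5 in 2VO and 6.54 in the mouse. Its log2 ratio of 0.79 was the highest of the 56 members and stayed above 1.5-fold in every setting tried. Txn1, the cytosolic thioredoxin that TXNIP binds, was 114 in Sham and 89.9 in 2VO, with a ratio of -0.34. The inhibitor was thus higher and its partner lower in the same 2VO library. Small, abundant genes such as Txn1, Prdx1, Gpx1 and Gpx4 have processed copies in rodent genomes, so their single values are uncertain. Txn2, the mitochondrial form, was 45.1 and 43.7.

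Thioredoxin reductases, selenoenzymes that pass electrons from NADPH to thioredoxin, were divided. Txnrd2, the mitochondrial enzyme, was 6.42 units in Sham and 8.32 in 2VO, a ratio of 0.33 that fell below 1.2-fold with 4 units added before the log. Txnrd3 was 3.61 and 4.16. The cytosolic Txnrd1 given above was level. Among the thioredoxin-domain and thioredoxin-like genes none other than Txn1 passed 1.2-fold. Txndc9, a regulator of chaperonin folding, was lowest of these, at 27.5 and 23.9. Txndc15, the most abundant Txndc gene, was 31.5 and 30.0. Txnl1 was 32.8 and 36.2. The splicing factor Txnl4a was 22.8 and 25.2, and its relative Txnl4b was 8.45 and 8.25.

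Superoxide dismutases convert superoxide to hydrogen peroxide, and catalase splits the peroxide. Sod1, the cytosolic copper-zinc enzyme, was 108 units in Sham and 124 in 2VO. Sod2, the manganese enzyme of mitochondria, was 46.1 and 53.0. Their log2 ratios were both 0.20. Sod3, the extracellular enzyme, was 11.2 and 10.1. Cat, the catalase of peroxisomes, was 16.9 and 19.9. None of the 4 passed 1.2-fold.

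Grouped by site in the cell, in sets chosen after the values were seen, the 7 members of the endoplasmic reticulum (Prdx4, Gpx7, Gpx8, Txndc5, Txndc11, Txndc12 and Txndc16) had log2 ratios from -0.10 to 0.16 and none passed 1.2-fold. The 6 mitochondrial members (Prdx3, Prdx5, Sod2, Txn2, Txnrd2 and Gstk1) ran from -0.04 to 0.33, and only Txnrd2 passed. Among 6 measured selenoenzymes 3 were higher and 3 lower in 2VO. The abundant Gpx4 and Gpx1 were the lowest of them and the scarce Gpx3 and Txnrd2 the highest.

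**Figure D3:**
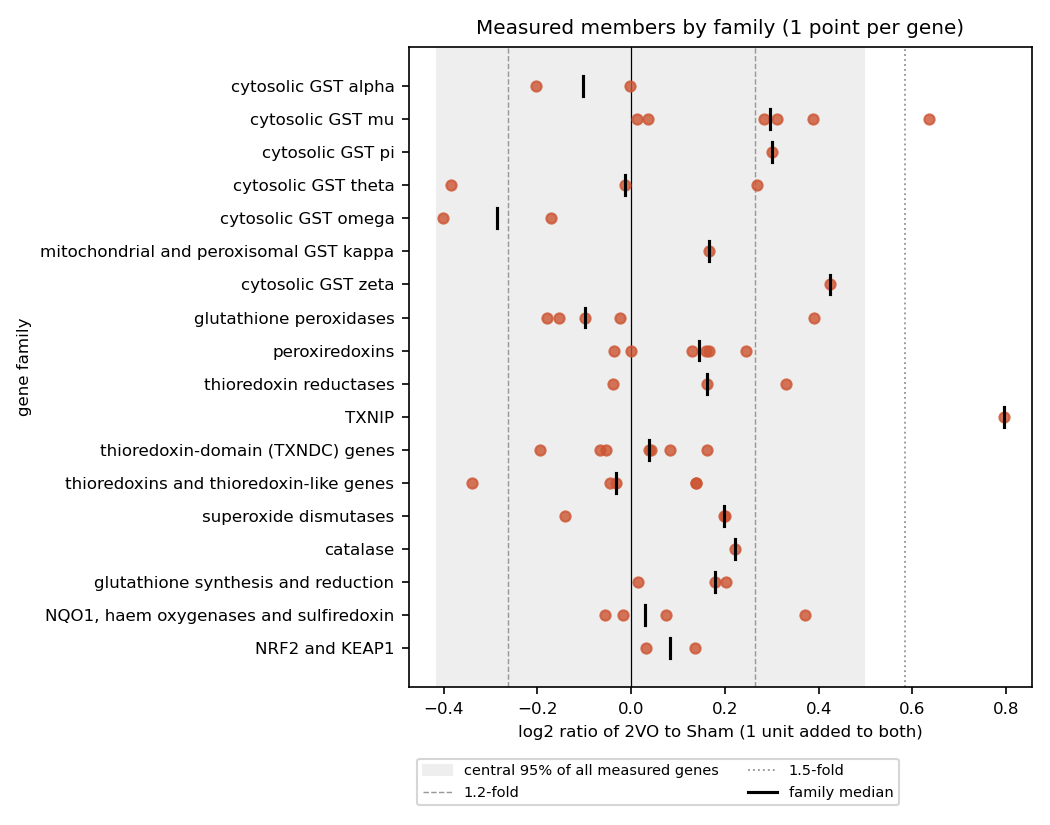
Each point is 1 measured member, placed by its log2 ratio of 2VO to Sham (1 unit added to both) and its family; black ticks are family medians, the grey band is the central 95% of all measured genes, and dashed and dotted lines mark 1.2-fold and 1.5-fold. The mu class lies right of 0 (as deposited; Gstm7 and Gstm6 cross it by the median of ratios), both omega genes left of it, and Txnip and Gstm1 lie right of the band.

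**Figure D4:**
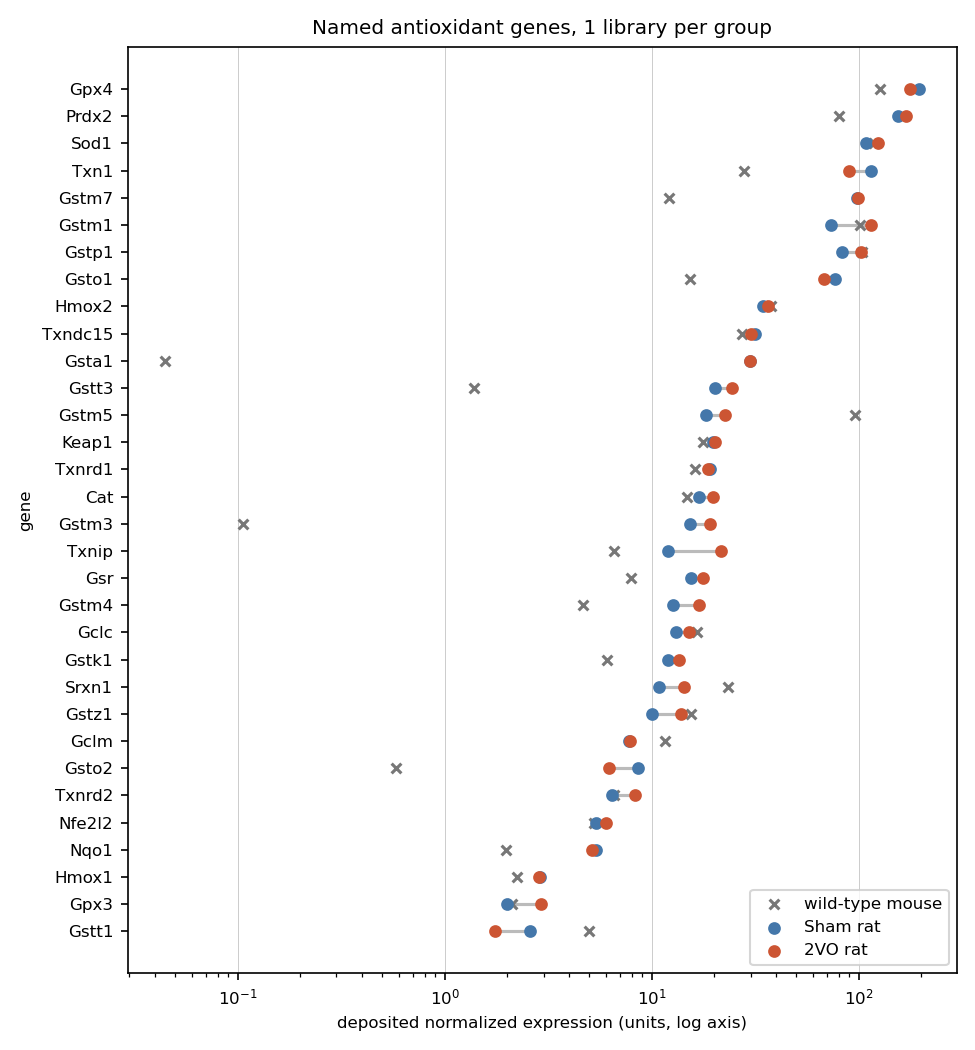
Deposited expression in units (log axis) of the 32 genes taken by the naming rule in the Sham rat (blue), the 2VO rat (red) and the wild-type mouse (grey cross), ordered by the rat mean. The rat points lie furthest apart for Txnip, and mouse values lie far from the rats mainly for transferases such as Gsta1, Gstm3, Gstm7 and Gstm5.

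The other genes of these pathways, taken from lists chosen by name, were as mixed as the members. Of 13 measured glutathione supply genes 8 were higher and 5 lower in 2VO, with 2 past 1.2-fold in each direction and a median log2 ratio of 0.05. Chac2, which degrades glutathione, was 2.89 units in Sham and 4.13 in 2VO, and Cth, which makes cysteine, was 1.87 and 1.19. Slc7a11, the cystine importer, was 6.59 and 6.32. Of 12 other glutathione-dependent enzymes 6 were higher (2 past 1.2-fold) and 6 lower (1 past it), where 58.7% of all measured genes were higher. Glrx, a glutaredoxin that removes glutathione from proteins, was 22.4 and 31.7, and Mgst1, a microsomal transferase, was 6.72 and 4.82. The more abundant microsomal transferase Mgst3 went the other way, at 96.5 and 126 with a ratio of 0.38. Among 15 NADPH supply genes 7 were higher, 5 of them past 1.2-fold, and 8 lower, 0 past it, with a median of -0.01; of all measured genes 12.6% and 6.81% passed 1.2-fold higher and lower. Me3, a mitochondrial malic enzyme, was 11.0 and 17.8, and the cytosolic malic enzyme Me1 was 20.8 and 25.9. The genes of this list past 1.2-fold thus included all 3 malic enzymes, with Me2 at 3.71 and 5.47. Me2 is also mitochondrial but mainly makes NADH, so it fits the list poorly.

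Of 20 measured NRF2 regulators and further targets 11 were higher (2 past 1.2-fold) and 9 lower (1 past it), and the median was 0.04. Across all measured genes 58.7% were higher, 12.6% and 6.81% passed 1.2-fold higher and lower, and the median was also 0.04. Cbr1, a carbonyl reductase, was 5.61 units in Sham and 8.57 in 2VO, and Blvra, biliverdin reductase, was 21.98 and 13.2. Blvra was the only gene of this list past 1.5-fold. Methionine sulfoxide and selenoprotein genes were found under 10 of 20 names, with 4 higher and 6 lower. Of 11 superoxide sources 3 were measured, with 1 past 1.2-fold in each direction. Cyba, a membrane subunit of the NADPH oxidase, was 7.04 and 5.01, and Xdh, xanthine dehydrogenase, was 0.914 and 1.60.

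Markers of cell types also differed between the rat libraries. Of all measured genes 58.7% were higher and 41.3% lower in 2VO, and 12.6% were at least 1.2-fold higher. Oligodendrocyte markers were higher in 2VO in 12 of 12 genes, 10 of them past 1.2-fold, and summed to 3951 units in Sham and 4959 in 2VO with none at 0. Choroid plexus and ependymal markers were higher in 8 of 9 measured genes and summed to 58.2 and 82.8, with none of the 12 at 0. Microglia markers were lower in 10 of 12 genes and summed to 223 and 176. Astrocyte markers were divided, 6 higher and 7 lower, with a sum of 2212 and 1934, and Gfap alone was 778 and 360. Neuron markers were higher in 9 of 12 genes and summed to 2894 and 3185, and endothelial markers in 4 of 8, with sums of 51.8 and 57.2 units. In bulk tissue a change in the number of cells of a type and a change in RNA per cell cannot be told apart. The part of these differences in the transferase, Gpx3, Txnip and Txn1 values was not tested.

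**Figure D5:**
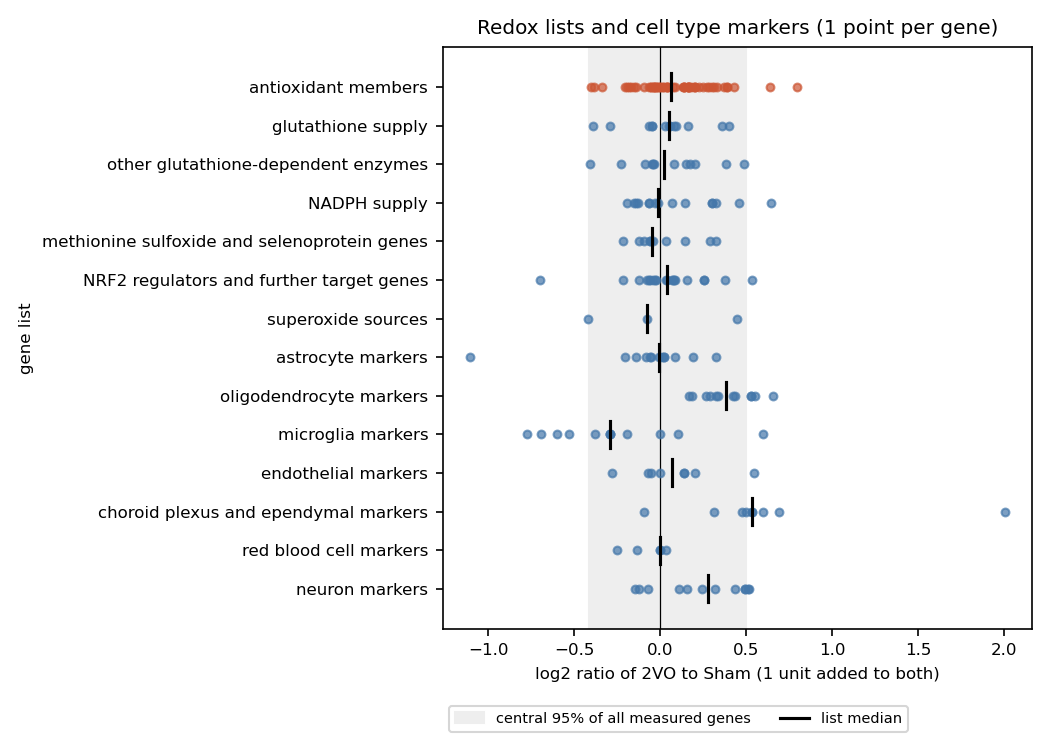
Each point is 1 measured gene placed by its log2 ratio of 2VO to Sham (1 unit added to both), with the antioxidant members in red, other redox lists and cell type markers in blue, list medians as black ticks and the central 95% of all measured genes as a grey band. Medians of the redox lists lie between -0.08 and 0.06, while oligodendrocyte and choroid plexus or ependymal markers lie to the right of 0 and microglia markers to the left.

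Mouse values are given as levels without any ratio to the rats, since species, age and annotation differ together. Its most abundant members after Gpx4 were Sod1 at 118 units, Gstp1 at 103, Gstm1 at 101 and Gstm5 at 95.9. In Sham they were Prdx2, Prdx6, Txn1 and Sod1, as given above. Across 56 shared members whose mouse and Sham values averaged 1 unit or more, Spearman's rho was 0.750 between mouse and Sham and 0.985 between the rats. Over all 11436 shared symbols chosen the same way it was 0.866 and 0.990. These describe genes, which are not independent, and the libraries share no normalization that the sources state.

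By rank among the expressed genes of each library, Gpx4 stood at percentile 99.1 in Sham, 98.9 in 2VO and 98.8 in the mouse. Txn1 stood at 97.9, 96.97 and 91.0. Srxn1 went the other way, at 72.7 in Sham, 77.1 in 2VO and 89.0 in the mouse. Several transferases, picked after their values were seen, had unlike ranks in the species. Gstm7 was at 97.4 in Sham and 78.8 in the mouse, and Gstm5 at 82.5 and 98.2. Gsta1 was at 89.3 and 16.0, with 0.0448 units in the mouse. Gsto1 was 76.6 units in Sham and 15.3 in the mouse. Gstm1, at 96.3 and 98.3, and Gstp1, at 96.8 and 98.4, had like ranks, and Gpx8, outside the transferases, was at 69.9 and 48.5. Gstz1 was 15.4 units in the mouse, beside 10.0 and 13.8 in the rats. Equal symbols need not mark the same ancestral copy in the mu and alpha clusters, and the mouse table holds 3 pi names, with Gstp2 at 12.9 units, where the rat tables hold 1.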

How the data were processed

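RNA of the hippocampus was extracted with TRIzol, and per the labels the libraries were made with an Illumina TruSeq RNA kit (v2). GRCm39, mRatBN7.2, DESeq2, fastp 0.21.0 and HISAT2 2.1.0 appear without roles, per the submitters' processing notes. The authors deposited 1 normalized expression signal per gene and library, never negative; its unit, the quantifier and the annotation are not named. Depth is therefore unknown and no counting error is given.

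Values were used as deposited. Ratios of 2VO to Sham were formed on the log2 scale after adding 1 unit, for genes averaging 1 unit or more over both rats. With 1 library per group no test was run, and counts past 1.2-fold and 1.5-fold stand beside those of all measured genes. The calculation was checked on simulated data. Members, gene lists and sets were chosen with earlier results of these data known. The naming rule took measured members at least 1.2-fold apart, the most abundant member of each family, Nfe2l2, Keap1 and 7 NRF2 readouts, 32 genes in all; members outside it are named as examples, and some genes of the lists are not reported here. Members matched RefSeq symbols (GRCr8) for 67 of 68 rat names. Alternatives were 0.25 or 4 units added, dropping the filter or raising it to 5 units, upper-quartile and median-of-ratios scaling and, added after the data were seen, leaving out the transferases. Windows were aligned with Biopython 1.88; Python 3.11.15, pandas 2.3.3 and numpy 2.4.6 were used.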

Additional observations from a re-analysis of the deposited data

How the results depend on the processing

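The members past 1.5-fold numbered 2 in each planned setting and 1 without the transferases. The 14 members past 1.2-fold numbered 9 with 4 units added before the log (Gpx3, Gstm5, Gstt1, Gstt3 and Txnrd2 dropped out) and 5 without the transferases, which leaves fewer genes to count. They numbered 11 under both other scalings (8 higher and 3 lower), where Gstm5, Gstp1 and Gstt3 dropped out. Over genes averaging 5 units or more they numbered 12 of 50, and without a filter 16 of 68. Of all genes, 9.69% were past 1.2-fold higher and 8.72% lower with upper quartiles set equal, and 9.55% and 8.83% by the median of ratios. The shares were 6.42% and 3.60% with 4 units added, 11.4% and 5.76% at 5 units or more, and 6.83% and 3.84% without a filter. The median log2 ratio of the members stayed above 0, from 0.016 by the median of ratios to 0.079 over genes averaging 5 units or more. Of the 56 measured members 4 changed sign with upper quartiles set equal and 5 by the median of ratios, all with ratios near 0; Txndc12 did so in both and Gstm6 in the second, and the 3 taken by the naming rule were Gclm at -0.023 and -0.026, Gstm7 at -0.028 and -0.031, and Keap1 at -0.0084 and -0.011. Among all measured genes past 1.2-fold, 64.8% were higher in 2VO as deposited and 52.0% by the median of ratios; among members the shares were 78.6% and 72.7%. Ranks taken among shared symbols were lower for each named gene and library, and 74 of 96 moved by more than 2.9 percentile points, the SD of the difference between the rats. No paired analysis was possible because each group holds 1 library. Unknown depth limits what low values such as Gpx3, Gstt1 and Hmox1 can show.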
